A study of Mus musculus with 12 samples.

Results

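Cycling T cells in melanomas of adoptively transferred mice were examined: the 6446 cells that the deposited cell table places in cluster 2 with the label T cells, of 45477 cells in all. Another 13 cells of that cluster carry other labels (10 NK cells and 3 CD8+ T cells) and were left out. The cells came from 6 mice, 747, 1395 and 1476 of them from CAL-101 mice 1, 2 and 3, and 1161, 649 and 1018 from control mice 1, 2 and 3. In all mice the host was Rag1-deficient (B6.129S7-Rag1tm1Mom/J), and so made no T or B cells of its own, and bore an intradermal B16-F10 melanoma, a transplantable mouse tumour line. Each mouse was given 1000000 CD8+ T cells of the Pmel Thy1.1 type, whose receptor recognises a melanocyte antigen, by retro-orbital injection. In the CAL-101 group those T cells had been treated in culture with CAL-101, also named idelalisib, which blocks PI3K delta, a phosphoinositide kinase of leukocytes. In the control group they had been treated with vehicle. The drug was therefore given to the cells before transfer, and each group is 3 mice. Live CD45.2+ cells were sorted from the resected tumours, and each mouse gave 1 droplet library with RNA and 102 antibody tags read from the same cells.

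A dividing T cell copies its genome in S phase, condenses and sorts the copies through G2 and mitosis, and then splits. D-type cyclins with Cdk4 or Cdk6 release E2F transcription factors and start the cycle, MCM helicases are loaded on origins before replication, and replication-dependent histones are made in S phase to package the new DNA. Cdk1 with B-type cyclins, Plk1 and the Aurora kinases drive mitosis, and the anaphase-promoting complex, with Cdc20 and Ube2c, ends it. In tumours, CD8+ T cells divide both as stem-like Tcf7-expressing cells and as granzyme-expressing effector cells. PI3K delta carries signals from the antigen receptor and cytokine receptors of T cells to AKT, mTOR and FOXO1.

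The label was first set beside 4 genes of dividing cells. These were Mki67, which encodes the Ki-67 protein of mitotic chromosomes, Top2a, a topoisomerase, Cdk1, and Birc5, a subunit of the chromosomal passenger complex. Levels are given as CPM, the UMIs of a gene per 1000000 RNA UMIs summed over the cells of a mouse, where a UMI marks 1 captured RNA molecule. Over the 6 mice, cluster 2 averaged 414.5 CPM of Mki67, 561.5 of Top2a, 138.8 of Cdk1 and 284.5 of Birc5, against 116.8, 123.6, 21.0 and 56.2 CPM in the pooled T cells of clusters 1, 3, 4 and 5, in the same order. All 4 genes were higher in cluster 2 in 6 of 6 mice. Because these cells hold many UMIs, each cell was also thinned to 2000 UMIs, which left out 2 cells of cluster 2. After thinning, a Mki67 UMI was found in 53.0, 55.9 and 50.1% of cluster 2 cells of CAL-101 mice 1, 2 and 3, and in 55.0, 52.2 and 56.6% of those of control mice 1, 2 and 3. Without thinning the mean shares were 98.4% in CAL-101 mice and 98.8% in control mice. In neutrophils of the same libraries, which do not divide, the thinned Mki67 share was 4.42% (exact 95% binomial interval 2.59 to 6.98%, 385 cells thinned and 29 left out). The median cell before thinning held 25741.5 RNA UMIs in cluster 2 and 3175.5 in neutrophils. All 4 markers thus went with the label against the pooled other T cells. They belong to the description of the cluster, so their levels are no independent test of it.

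Cluster 2 was not alone in carrying the cycling markers. Cluster 4 averaged 557 CPM of Mki67, more than cluster 2 in 6 of 6 mice, and 55.6 to 60.0% of its thinned cells had a Mki67 UMI. Its thinned shares for Cdk1 (8.95 to 11.8%) and Birc5 (13.6 to 20.3%) lay under those of cluster 2 (20.8 to 25.2% and 37.0 to 46.1%). Clusters 1, 3 and 5 had a Mki67 UMI in 7.31 to 16.8% of thinned cells. Of all thinned T cells of clusters 1 to 5 with a Mki67 UMI, 40.5 to 53.4% by mouse were in cluster 2 and 30.4 to 42.5% in cluster 4. Cluster 4 cells were shallower and had more mitochondrial RNA: their median by mouse was 4368 to 5516 RNA UMIs with 14.4 to 18.1% mitochondrial UMIs, against 21983 to 32067 UMIs with 2.89 to 3.23% in cluster 2.

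**Figure D1:**
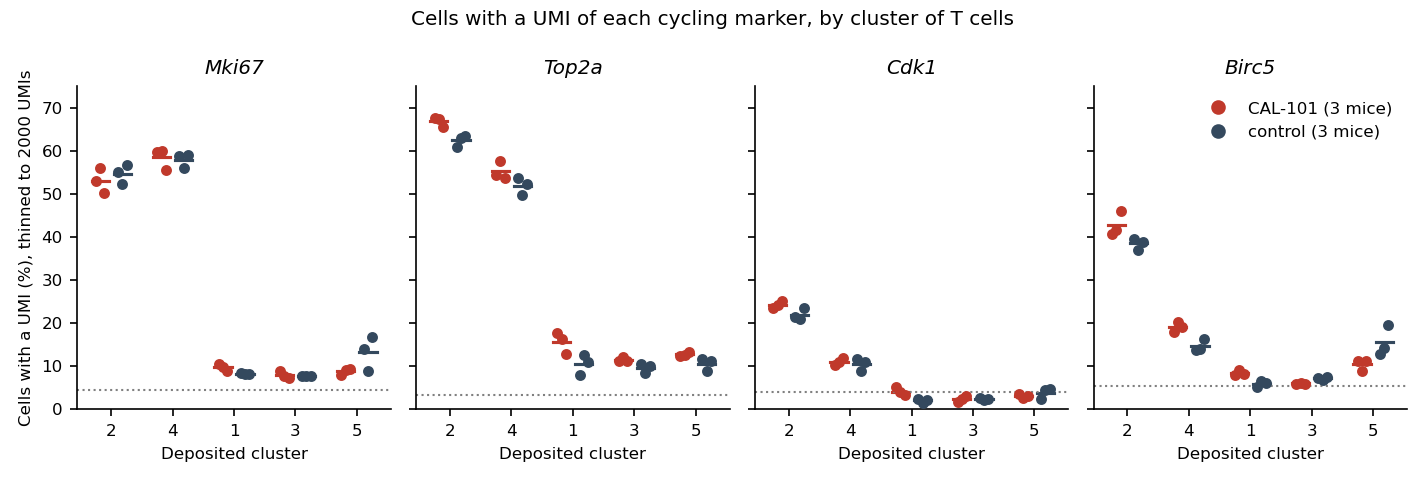
Share of cells with at least 1 UMI of Mki67, Top2a, Cdk1 or Birc5 (y axis, percent, each cell thinned to 2000 UMIs) in 5 deposited clusters of T cells (x axis). Each point is 1 mouse, CAL-101 left of control, horizontal bars are means and the dotted line is the share in neutrophils; clusters 2 and 4 stand above clusters 1, 3 and 5 for Mki67 and Top2a, and cluster 2 above cluster 4 for Cdk1 and Birc5.

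The genes that set cluster 2 apart from the other T cells were genes of chromosome replication and segregation. How the authors' clusters were made is not stated, and expression may have set them, so these ratios describe the cluster and carry no test. Among 9581 genes of at least 5 CPM on either side, 3030 (31.6%) were higher in cluster 2 than in the pooled other T cells in 6 of 6 mice and 4330 (45.2%) were lower. Of 3595 genes of at least 50 CPM, 29 had over 4 times the level of the others and 6 had a log2 ratio under -1. The highest ratio belonged to the linker histone gene Hist1h1b, with a mean of 724 CPM in cluster 2 against 73.3 CPM in the others and 220 CPM in cluster 4. Next came Aurkb, the kinase of the passenger complex (71.5 against 9.06 CPM), the histone genes Hist1h2ap and Hist1h2ae (log2 ratios 2.96 and 2.94), Ccna2, the cyclin of S phase and G2 (115 against 16.7 CPM), Cdk1 itself and Nusap1, a spindle protein (171 against 25.9 CPM). Hist1h3c (log2 ratio 2.68), Rrm2, which supplies deoxynucleotides (141 against 22.9 CPM), and Hmmr, a spindle assembly factor (94.0 against 16.3 CPM), completed the top 10.

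By function, all members of the lists for mitotic entry (14 genes), the spindle and kinetochore (25) and chromosome compaction, passenger complex, exit and cytokinesis (23) were higher in cluster 2 in 6 of 6 mice, with median log2 ratios of 1.70, 1.98 and 1.87, where the median over all 9581 genes was -0.08. So were 35 of 37 replication-dependent histones (median 2.14), 19 of 19 genes of origin licensing and firing (0.87), 25 of 26 fork and nucleotide genes (0.96) and 17 of 18 DNA damage response genes (1.08). Against cluster 4 alone the picture was narrower: 36 of the 37 histones had a higher mean in cluster 2, while 16 of 25 spindle genes and 3 of 18 DNA damage genes did. Chemokine genes of activated T cells made up 4 of the 10 genes lowest in cluster 2. Ccl5 averaged 260 CPM in cluster 2 and 629 in the other T cells, Ccl4 148 and 334, Ccl3 81.2 and 177, and Ccl1 101 and 210. These genes were highest in cluster 3, at 811 CPM of Ccl5, 653 of Ccl4, 357 of Ccl3 and 363 of Ccl1, and cluster 2 was not below every other cluster. It was above cluster 4 in 6 of 6 mice for Ccl5, Ccl4 and Ccl3 (173, 116 and 57.3 CPM in cluster 4), above cluster 1 in 6 of 6 for Ccl3 and 5 of 6 for Ccl4, and above cluster 5 in 6 of 6 for Ccl1. Slc24a1, Kdm7a, Raet1e, Irak2, Crim1 and Dlg2 made up the rest of the 10 lowest, with log2 ratios of -1.22 to -0.96. Effector genes as a list were lower in 14 of 19 and higher in 0, and progenitor genes lower in 11 of 14. Against cluster 4 alone, 13 of the 19 effector genes and 4 of the 14 progenitor genes had a higher mean in cluster 2, where 3745 of all 9581 genes did. Gzmb, encoding granzyme B, was near the pooled others (log2 ratio 0.06).

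Surface antibodies differed less. Antibody levels are given as a percent of all antibody tags of a mouse's cluster 2 cells. CD8a took 7.35% of tags in cluster 2 and 0.366% in NK cells, while CD4 and NK.1.1 were under the highest of 7 isotype controls (0.0669% of tags). Of the 87 antibodies above that isotype level, 8 (9.2%) were higher in cluster 2 than in the other T cells in 6 of 6 mice and 50 (57.5%) were lower; 6 of the 7 isotype controls were also lower in 6 of 6. CD25, the alpha chain of the IL-2 receptor, was highest by ratio (log2 0.42, 1.25 against 0.930% of tags), with CD98, the heavy chain of an amino acid transporter (0.41), and CD278, the costimulatory receptor ICOS (0.19). The lowest ratios with the same direction in 6 of 6 mice were CD38 (-0.55), CD40 (-0.48), CD73 (-0.38), CD11c (-0.38) and MERTK (-0.36). The first pair rest on CAL-101 mouse 2, where the ratio of cluster 2 to the others was 0.360 for CD38 and 0.395 for CD40, while the other mice gave 0.799 to 0.957 and 0.816 to 0.891.

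Depth and cell quality inside cluster 2 were measured next, since a count can move with either. Median RNA UMIs per cell were 29546, 26026 and 25683 in CAL-101 mice 1, 2 and 3, and 24560, 32067 and 21983 in control mice 1, 2 and 3. The groups overlapped, and so did median genes per cell (4754 to 5543 over the 6 mice), the median mitochondrial share and median antibody tags (2064 to 3249); the exact permutation p was 0.3 to 0.8 and the adjusted p 0.8 for all 4 measures. The summed RNA came to 21503179 to 41568326 UMIs per mouse. By mouse, 6.83 to 13.1% of cluster 2 cells were among the highest doublet scores of their library. In clusters 1, 3, 4 and 5 together the share was 2.30 to 5.67%. Cell barcodes were shared by libraries in 249 of 45228 cases, 6 of which had both cells in cluster 2. By principal components of the summed RNA, the first component (55.9% of the variance) separated the 2 groups, and control mouse 2 stood apart from the other mice on the second (20.2%). Among marker lists of other cells, the 5 neutrophil markers summed to 0.866 to 4.49 CPM by mouse and the 7 melanoma markers to 2.28 to 3.74 CPM. Other lists gave more: 440 to 727 CPM for 8 monocyte and macrophage markers, nearly all Ly6c2, 43.5 to 205 CPM for 7 dendritic cell markers, led by Cd74 at 161 CPM in control mouse 2, and 132 to 159 CPM for 6 endothelial and stromal markers, nearly all Pecam1. The NK and B cell lists are given beside the genes they move with. The 10 T cell markers summed to 12631 to 13271 CPM in CAL-101 mice and 11117 to 12414 CPM in control mice.

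Cluster 2 made up 22.9, 23.7 and 28.7% of the T cells of clusters 1 to 5 in CAL-101 mice 1, 2 and 3, and 22.1, 20.1 and 18.4% in control mice 1, 2 and 3. Every CAL-101 mouse was above every control mouse. The means were 25.1% ± 3.14 in CAL-101 and 20.2% ± 1.87 in control mice (SD, n = 3 each), a difference of 4.86 points with an exact 2-sided permutation p of 0.1, the smallest that 3 mice against 3 can give. With edgeR on cell numbers over the 5 clusters, the log2 ratio was 0.31 (adjusted p = 0.202). As a share of all cells labelled T, CD8 T or CD4 T, and together with cluster 4, the groups overlapped (differences of 4.88 and 5.36 points, exact p = 0.2 each). The other clusters took different shares of these cells as well, cluster 3 with 8.39% in CAL-101 and 32.3% in control mice and cluster 5 with 25.1 and 2.72%.

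Position in the cell cycle was read from 45 S phase genes and 62 G2/M genes in cells thinned to 4000 UMIs, which kept 6435 of the 6446. Cells whose S list UMIs exceeded their G2/M list UMIs, called S dominant here, made up 27.3, 26.9 and 31.1% in CAL-101 mice 1, 2 and 3, and 27.9, 33.6 and 25.2% in control mice 1, 2 and 3. The groups overlapped, with a difference of -0.452 points (exact permutation p = 0.8), and 14.7% of CAL-101 and 15.9% of control cells lay within 3 UMIs of the dividing line, so the share is a range of a score and not a cell type. The 2 sums themselves did not overlap. The S list gave 17.6, 17.6 and 18.6 UMIs per cell in CAL-101 mice and 16.4, 17.1 and 16.2 in control mice, and the G2/M list 29.1, 29.3 and 28.8 against 26.8, 24.7 and 26.6. Both lists thus took more of the 4000 UMIs in every CAL-101 mouse than in any control mouse, while the balance between them was not told apart at this number of mice. In clusters 1, 3 and 5 the S list gave 4.0 to 8.95 UMIs by mouse and the G2/M list 4.06 to 8.13, and in cluster 4 they gave 12.1 to 13.5 and 19.3 to 23.6. Those values cover only the deeper cells of clusters 1 and 4, since 4000 UMIs were reached by 2139 of 7544 cells (28.4%) and 2850 of 4425 cells (64.4%). Free RNA may enter these sums too, and its part in them was not tested.

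**Figure D2:**
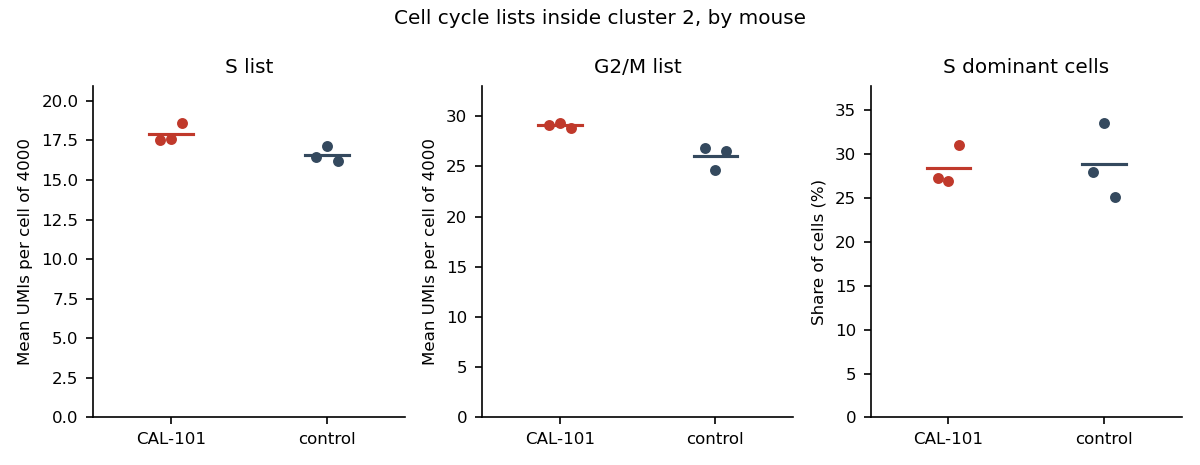
Mean UMIs of the S list and of the G2/M list per cell of 4000 UMIs, and the share of S dominant cells in percent (y axes), for cluster 2 in 3 CAL-101 and 3 control mice (x axes; points are mice, bars are means). The S and G2/M sums of CAL-101 mice (17.6 to 18.6 and 28.8 to 29.3) lie above those of control mice (16.2 to 17.1 and 24.7 to 26.8), and the S dominant shares overlap.

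Inside cluster 2, CAL-101 T cells had less granzyme RNA and more RNA of Tcf7, Id3, Tox and 7 of 17 interferon-stimulated genes. Lists of the cell cycle differed: 0 of 26 replication fork genes and 2 of 25 spindle genes passed the test. The shares passing were 21.4% for mitotic entry, 21.7% for compaction, passenger complex, exit and cytokinesis, and 21.0% for histones, all of which fell. They were 30.8% for genes that start the cycle and 20% for its brakes, against 12.6% of all genes. Of 14012 genes tested with edgeR's quasi-likelihood test on RNA summed per mouse, 833 (5.94%) were higher and 936 (6.68%) lower at a Benjamini-Hochberg adjusted p under 0.05, together 12.6% of genes. The groups did not overlap in 33.8% of all genes tested. The median log2 fold change over all genes was -0.004, and 263 of the higher and 239 of the lower genes changed by more than 1 on the log2 scale. In the text below, higher, lower, rose and fell are said of CAL-101 relative to control and, unless values alone are given, of genes past that threshold, and adjusted p-values are edgeR's over all genes. Fewer cells making a transcript and less transcript per cell cannot be told apart from these sums. Control mouse 2 was the control nearest to the CAL-101 mice for Gzma, Gzmb, Gzmd, Gzme, Gzmf and Prf1. The number of genes called was 2654 without it and 625 without control mouse 3.

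**Figure D3:**
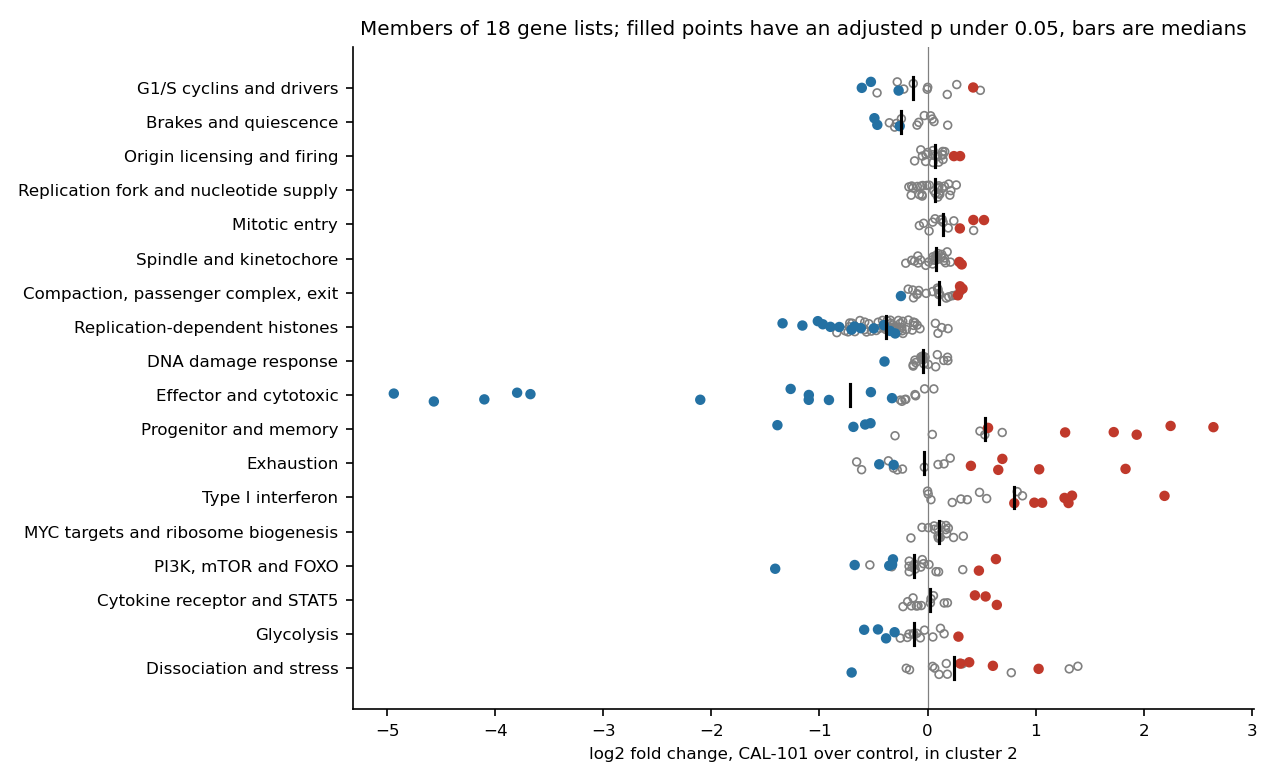
Log2 fold change of CAL-101 over control in cluster 2 (x axis) for each tested member of 18 gene lists (rows). Filled red points rose and filled blue points fell at an adjusted p under 0.05, open points did not pass, and black bars are list medians; effector genes and histones lie to the left of 0, interferon genes to the right, and the division lists cluster near 0.

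Of 13 genes that start the cycle, 3 fell and 1 rose (23.1% lower against 6.68% of all genes, and 7.69% higher against 5.94%; median log2 fold change -0.13). Ccnd3, cyclin D3, had 107, 134 and 125 CPM in CAL-101 mice 1, 2 and 3, against 171, 171 and 165 CPM in control mice 1, 2 and 3. No CAL-101 mouse reached a control mouse, and the log2 fold change was -0.52 (SE 0.08, adjusted p = 0.00666). Ccnd2, the other D-type cyclin of lymphocytes, was at 91.9, 93.2 and 87.5 CPM in CAL-101 mice, against 113, 169 and 118 CPM in control mice (-0.61, adjusted p = 0.0317). E2f1, which switches on replication genes, fell by 0.27 on the log2 scale (adjusted p = 0.0302). Their partner kinase Cdk6 went the other way, with 347, 347 and 356 CPM in CAL-101 mice, against 290, 200 and 266 CPM in control mice (log2 fold change 0.42, adjusted p = 0.0459). Ccnd3 kept its call when any 1 mouse was left out, and Ccnd2, E2f1 and Cdk6 lost theirs without CAL-101 mouse 3, without control mouse 3 and without others. Myc, a growth regulator, had 36.0, 22.6 and 30.0 CPM in CAL-101 mice, against 17.3, 25.9 and 17.7 CPM in control mice, with overlap and an adjusted p of 0.161; 0 of 16 MYC target and ribosome biogenesis genes passed in either direction (0 with DESeq2 as well, and 6 higher without control mouse 2; median 0.11).

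Brakes of the cycle were, where they changed, lower. Of 15 genes of this list 3 fell and 0 rose (20% lower, against 6.68% of all genes; median -0.24). Rbl2, a pocket protein that represses E2F targets in resting cells, was at 67.1, 56.2 and 60.4 CPM in CAL-101 mice, against 84.8, 81.9 and 81.8 CPM in control mice. The groups were apart (log2 fold change -0.49, SE 0.08, adjusted p = 0.00629), and the call held without any 1 mouse. Its relative Rbl1 (-0.26, adjusted p = 0.0379) and Btg2, an antiproliferative gene (-0.47, adjusted p = 0.0455, with overlap), lost their calls without CAL-101 mouse 1 or 3 or control mouse 1 or 3, and Btg2 also without CAL-101 mouse 2. The inhibitors of cyclin-dependent kinases did not pass: Cdkn1a (p21) had 39.6, 43.6 and 38.9 CPM in CAL-101 mice, against 58.4, 36.5 and 48.7 CPM in control mice (adjusted p = 0.222), and Cdkn1b (p27) had a log2 fold change of -0.26 (adjusted p = 0.233).

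Genes that copy DNA were nearly level. None of the 26 fork and nucleotide supply genes passed in either direction (0 with DESeq2, 1 higher without CAL-101 mouse 2 and 3 higher without control mouse 2; median log2 fold change 0.07, from -0.17 for Pole, a DNA polymerase subunit, to 0.27 for Dut, which removes dUTP). Of the 19 genes of origin licensing and firing, 2 rose and 0 fell (10.5% higher, against 5.94% of all genes). Mcm2, a subunit of the replicative helicase, had 63.5, 56.8 and 64.0 CPM in CAL-101 mice, against 48.0, 50.7 and 45.3 CPM in control mice, and its helicase partner Cdc45 rose by a log2 of 0.24 (adjusted p = 0.0432 and 0.0470). Without CAL-101 mouse 3 or control mouse 3, neither passed. In the DNA damage response list 1 of 18 changed (5.56% lower, near the 6.68% of all genes). This gene, Brca2, of homologous recombination, fell by 0.41 on the log2 scale (adjusted p = 0.00888), a call lost without CAL-101 mouse 3.

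The 4 markers used above to describe the cluster did not pass the test. Mki67 had 404, 430 and 374 CPM in CAL-101 mice, against 436, 401 and 443 CPM in control mice (log2 fold change -0.14, adjusted p = 0.227). Top2a had 592, 611 and 579 CPM in CAL-101 mice, against 519, 543 and 524 CPM in control mice (0.11, adjusted p = 0.237). Cdk1 (0.13, adjusted p = 0.211) and Birc5 (0.10, adjusted p = 0.333) were, like Top2a, without overlap in CPM and did not pass the test. After thinning to 2000 UMIs, a Top2a UMI was found in 67.6, 67.4 and 65.4% of CAL-101 and 60.9, 63.0 and 63.5% of control cells, and a Birc5 UMI in 40.7, 41.7 and 46.1% against 39.6, 37.0 and 38.9%. The exact permutation p was 0.1 for each, the smallest possible. The thinned Cdk1 shares overlapped, at 23.4, 24.2 and 25.2% against 21.3, 20.8 and 23.5% (exact permutation p = 0.2), and so did those of Mki67 given above.

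A few mitotic regulators rose by small amounts. Plk1, the kinase of mitotic entry, had 51.0, 46.0 and 53.0 CPM in CAL-101 mice 1, 2 and 3, against 35.6, 33.4 and 31.6 CPM in control mice 1, 2 and 3. Every CAL-101 mouse was above every control mouse, with a log2 fold change of 0.52 (SE 0.08, adjusted p = 0.00611). Aurka, the kinase of spindle poles, had 28.8, 32.1 and 29.5 CPM in CAL-101 mice, against 22.4, 21.1 and 21.4 CPM in control mice (0.42, SE 0.07, adjusted p = 0.00761). These 2 genes kept their calls without any 1 mouse. Ccnb1, cyclin B1, was the third of 14 mitotic entry genes to pass (0.30, adjusted p = 0.0497; 3 higher, 0 lower, list median 0.14). Among 25 spindle and kinetochore genes 2 rose and 0 fell (median 0.08): Hmmr with 101, 107 and 107 CPM in CAL-101 mice, against 87.0, 79.0 and 82.2 CPM in control mice (0.29, adjusted p = 0.0181), and Bub1b, a checkpoint protein, with 65.7, 61.0 and 61.8 against 49.5, 48.9 and 47.4 CPM (0.32, adjusted p = 0.0162). Of 23 genes of compaction, passenger complex, exit and cytokinesis, 4 rose and 1 fell (median 0.10). Ube2c, the ubiquitin-conjugating enzyme of the anaphase-promoting complex, had 390, 390 and 414 CPM in CAL-101 mice, against 327, 281 and 313 CPM in control mice (0.32, adjusted p = 0.0195). Its activator Cdc20 (0.31, adjusted p = 0.0447), Ect2 (0.30, adjusted p = 0.0408) and Prc1 (0.28, adjusted p = 0.0353), both of cytokinesis, rose too, and the condensin subunit Ncapd2 fell by 0.25 (adjusted p = 0.0460). Against 5.94% of all genes higher, the shares higher in these 3 lists were 21.4, 8.0 and 17.4%. All calls in the spindle and exit lists were lost without CAL-101 mouse 3 and without control mouse 3.

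Promoters of mitotic genes are known to carry a cell cycle homology region (CHR) near the start site together with CCAAT boxes. The spindle and fork lists, of which 23 genes each had a RefSeq promoter window (GRCm38.p6, 250 bases before to 50 bases after the annotated start site), were searched on both strands for TTTGAA (CHR), for CCAAT and for TTTCCCGC or TTTGGCGC (E2F). The spindle windows held the CHR letters in 15 of 23 (65.2%), CCAAT in 17 (73.9%) and both in 13 (56.5%), and the fork windows in 1 (4.35%), 10 (43.5%) and 0. Over all 27025 RefSeq windows the shares were 18.1, 37.9 and 7.12%, and over those of the genes tested 12.6, 38.8 and 5.28%. The other S phase list, origin licensing and firing, was searched in the same way. Its 14 windows gave 35.7, 71.4 and 21.4%. The E2F letters were in 8.70% of spindle windows, 17.4% of fork windows, 50% of licensing windows and 1.63% of all windows. The letters are a description of the windows, and list and window share no test. The 150 bases before the start site of 4 of the mitotic genes that rose are shown because they let the spacing of these letters be seen, 5′ to 3′ on the gene's strand, with the matched letters in capitals.
Plk1, chr7:122159285-122159434, + strand: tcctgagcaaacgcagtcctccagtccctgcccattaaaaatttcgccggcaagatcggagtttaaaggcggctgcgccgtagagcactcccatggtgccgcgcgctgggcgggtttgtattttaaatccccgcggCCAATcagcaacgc
Cdc20, chr4:118437344-118437493, - strand: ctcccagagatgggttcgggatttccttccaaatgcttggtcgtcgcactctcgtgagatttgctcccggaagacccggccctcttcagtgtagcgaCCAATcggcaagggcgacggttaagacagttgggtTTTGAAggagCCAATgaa
Hmmr, chr11:40733438-40733587, - strand: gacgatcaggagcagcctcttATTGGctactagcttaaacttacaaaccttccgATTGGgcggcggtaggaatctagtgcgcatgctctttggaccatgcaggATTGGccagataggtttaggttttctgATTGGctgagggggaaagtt
Bub1b, chr2:118598061-118598210, + strand: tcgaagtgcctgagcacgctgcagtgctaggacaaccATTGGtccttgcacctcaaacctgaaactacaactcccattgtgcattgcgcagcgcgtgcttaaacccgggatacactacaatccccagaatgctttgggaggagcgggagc
Plk1 has 1 CCAAT box 14 bases before the start site and its CHR letters 30 bases after it, outside the stretch shown. In Cdc20 the CHR letters lie 18 bases before the start site between 2 CCAAT boxes at 53 and 8 bases. Hmmr has ATTGG, the reverse complement of CCAAT, at 129, 96, 47 and 20 bases before the start site and the CHR letters 8 bases after it. Bub1b has 1 such box at 113 bases and the CHR letters 40 bases after the start site.

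Histone RNA went the opposite way to the mitotic kinases. Of 62 replication-dependent histones tested (67 in the list), 13 fell and 0 rose (21.0% lower, against 6.68% of all genes), 58 of 62 had a log2 fold change below 0, and the median was -0.38. Most mRNAs of this class lack a poly(A) tail and the libraries were primed on poly(A), so the counts cover only a part of each transcript pool. Hist1h2bc, an H2B gene, had 21.1, 21.7 and 23.2 CPM in CAL-101 mice 1, 2 and 3, against 55.3, 38.5 and 67.5 CPM in control mice 1, 2 and 3. The lowest control mouse was above the highest CAL-101 mouse, and the log2 fold change was -1.34 (SE 0.17, adjusted p = 0.00241). Unlike 35 of the 37 histones compared above, Hist1h2bc was not higher in cluster 2 than in the other T cells in every mouse. Those held 26.1, 22.4 and 25.8 CPM in CAL-101 mice, more than cluster 2, and 38.5, 27.4 and 38.6 CPM in control mice, less than cluster 2. Hist1h3g (1.76, 2.08 and 1.88 against 3.67, 3.72 and 5.0 CPM; -1.16), Hist1h2bj (-0.90) and the H4 gene Hist1h4i (-0.68) also fell (adjusted p = 0.00491, 0.00355 and 0.00720), and these 4 kept their calls without any 1 mouse. The abundant linker histone Hist1h1b had 654, 638 and 695 CPM in CAL-101 mice, against 743, 736 and 878 CPM in control mice (-0.30, adjusted p = 0.0473). Among S dominant cells alone 7 of 54 histones fell and 0 rose, and among G2/M dominant cells 15 of 60 fell and 0 rose. Of all genes, 442 of 11588 fell in S dominant cells and 869 of 13299 in G2/M dominant cells. A difference between the phases was not tested. Leaving out 1 mouse at a time gave 4 (without CAL-101 mouse 3) to 20 (without CAL-101 mouse 2) lower, and 0 higher each time. In those 2 runs 326 of 14011 and 736 of 13977 genes were lower. Histone genes are near-identical copies, so reads may be split between them.

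The largest single decreases among well-expressed genes were of cytotoxic genes. Of 20 effector and cytotoxic genes, 12 fell and 0 rose (60.0% lower, against 6.68% of all genes; median log2 fold change -0.72). Gzma, encoding granzyme A, had 69.4, 35.1 and 30.5 CPM in CAL-101 mice 1, 2 and 3, against 751, 588 and 879 CPM in control mice 1, 2 and 3. Every control mouse was above every CAL-101 mouse, with a log2 fold change of -4.10 (SE 0.32, adjusted p = 0.000257). Gzmb had 647, 943 and 990 CPM in CAL-101 mice, against 2492, 1372 and 2130 CPM in control mice (-1.27, SE 0.22, adjusted p = 0.00884). Gzmc fell as well (-2.10, adjusted p = 0.00192). Gzmd, Gzme and Gzmf, neighbours of Gzmb in the granzyme cluster, were at 1.51 to 3.02, 0.923 to 2.65 and 15.5 to 70.7 CPM in CAL-101 mice. In control mice they spread widely, Gzme from 7.58 CPM in mouse 2 to 93.3 CPM in mouse 1 and Gzmf from 188 to 891 CPM in the same mice. Their log2 fold changes were -4.57, -4.94 and -3.67 (adjusted p = 0.00355, 0.00795 and 0.00922), and Gzmf lost its call without CAL-101 mouse 3. These paralogs are alike in sequence, and the split of reads between them is uncertain.

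The effector list held other genes that fell. Serpinb9b, a granzyme inhibitor gene, had 4.07, 6.54 and 8.78 CPM in CAL-101 mice, against 98.5, 68.7 and 99.0 CPM in control mice (-3.80, adjusted p = 0.000115), and Zeb2, a transcription factor of effector cells, 69.8, 70.6 and 64.1 against 130, 148 and 143 CPM (-1.10, adjusted p = 0.000158). Prf1, encoding perforin, fell too, with control mouse 2 (88.9 CPM) just above CAL-101 mouse 3 (88.7 CPM) and an adjusted p of 0.0286. Ccl5 (-0.91, with overlap), Fasl (-0.52) and Tnf (-0.33) were the other members to fall. Ifng, the gene of interferon gamma, did not pass: it had 316, 345 and 346 CPM in CAL-101 mice, against 307, 411 and 424 CPM in control mice (adjusted p = 0.245). Nkg7 (0.06), Ccl3 (-0.12) and Tbx21 (-0.03) did not pass either. All 6 granzyme genes but Gzmf, and Serpinb9b and Zeb2, kept their calls without any 1 mouse. The NK cell marker sum, which holds Gzma, was 744 to 1023 CPM in CAL-101 and 1302 to 1614 CPM in control mice. Of its 11 members 4 fell and 0 rose, where 6.68% of all genes fell and 5.94% rose. Besides Gzma these were Fcer1g (means of 20.4 CPM in CAL-101 and 43.1 CPM in control mice, with overlap), Klrb1c (1.08 to 3.27 against 4.42 to 6.94 CPM) and Klrk1 (272 to 302 against 316 to 351 CPM). The defining NK receptor genes Ncr1 and Klra8 averaged 1.10 and 1.05 CPM in CAL-101 mice and 1.26 and 1.35 CPM in control mice, against 206 and 240 CPM in NK cells. The part of NK cells in these differences was not tested.

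Shares of cells gave the same order, with a background to set beside it. After thinning to 2000 UMIs, 5.76, 2.87 and 3.93% of CAL-101 cluster 2 cells had a Gzma UMI, against 36.3, 41.1 and 40.9% of control cells. Neutrophils, which should not make it, had one in 5.49% of 91 cells of CAL-101 mice (exact 95% binomial interval 1.81 to 12.4%) and in 29.3% of 294 cells of control mice (24.1 to 34.8%). The CAL-101 shares of cluster 2 thus lay inside the interval of neutrophils of CAL-101 mice and are not read as expression. The control shares lay above the interval of neutrophils of control mice, which was higher than that of CAL-101 mice. The source of the neutrophil signal and its part in the Gzma difference were not tested. Gzmb was found in 44.3, 57.9 and 58.9% of CAL-101 and 84.1, 72.0 and 84.6% of control cells of cluster 2, against 19.8 and 38.4% of neutrophils of CAL-101 and control mice. Intervals cover counting error only.

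**Figure D4:**
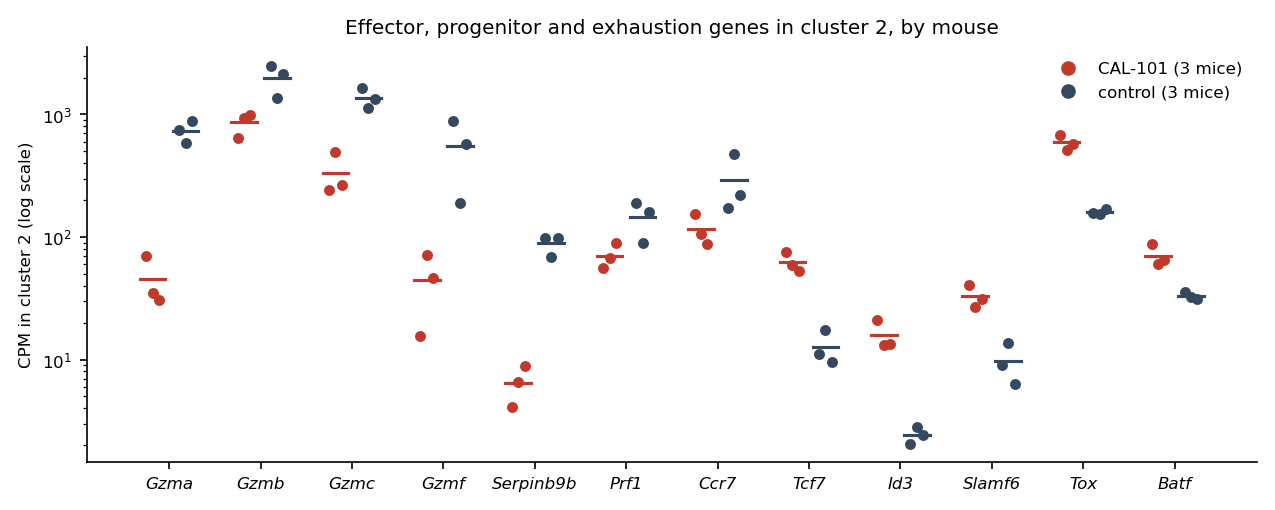
CPM in cluster 2 (y axis, log scale) of 12 effector, progenitor and exhaustion genes (x axis) in 3 CAL-101 mice (red, left) and 3 control mice (dark, right); points are mice and bars are means. Granzymes, Serpinb9b, Prf1 and Ccr7 are lower and Tcf7, Id3, Slamf6, Tox and Batf higher in every CAL-101 mouse than in any control mouse, with the narrowest gap at Prf1 (88.7 against 88.9 CPM).

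Progenitor and memory genes split. Of 15, 6 rose and 4 fell (40.0% higher against 5.94% of all genes, and 26.7% lower against 6.68%; median 0.53). Tcf7, encoding the transcription factor TCF1 of stem-like and memory T cells, had 75.5, 59.2 and 53.2 CPM in CAL-101 mice 1, 2 and 3, against 11.1, 17.5 and 9.63 CPM in control mice 1, 2 and 3. The lowest CAL-101 mouse was well above the highest control mouse, with a log2 fold change of 2.25 (SE 0.22, adjusted p = 0.000719). Id3, a regulator of memory precursors, had 20.9, 13.1 and 13.3 CPM in CAL-101 mice, against 2.06, 2.79 and 2.44 CPM in control mice (2.64, adjusted p = 0.000424). Slamf6, the gene of the surface protein Ly108, rose by 1.72 (adjusted p = 0.00514), the follicular homing receptor gene Cxcr5 by 1.27 (adjusted p = 0.00704, at 2.21 to 2.52 against 0.786 to 1.21 CPM) and Klf2, a factor of circulating T cells, by 0.56 (adjusted p = 0.0381). Other genes of resting and memory cells were lower. Ccr7, the lymph node homing receptor, had 153, 106 and 88.3 CPM in CAL-101 mice, against 173, 478 and 221 CPM in control mice (-1.39, adjusted p = 0.0418). Bach2, a repressor that holds back effector differentiation, had 277, 367 and 298 against 461, 448 and 444 CPM (-0.58, adjusted p = 0.00758). Il7r (-0.53, adjusted p = 0.0402) and Lef1 (-0.69, adjusted p = 0.0416, with overlap) fell as well. After thinning to 2000 UMIs a Tcf7 UMI was in 11.9, 8.75 and 7.45% of CAL-101 cells and 1.72, 3.08 and 1.47% of control cells, and in 0 of 385 neutrophils (exact 95% upper limit 0.954%). Tcf7, Id3 and Slamf6 kept their calls without any 1 mouse.

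Exhaustion genes did not move as a block either: 5 of 17 rose and 2 fell, with a median of -0.03. The shares were 29.4% higher, against 5.94% of all genes, and 11.8% lower, against 6.68%. Tox, the transcription factor that sustains exhausted T cells, had 683, 516 and 574 CPM in CAL-101 mice, against 156, 155 and 169 CPM in control mice. The groups were far apart (log2 fold change 1.83, SE 0.11, adjusted p = 9.47e-05), and a Tox UMI was in 61.2, 50.3 and 56.5% of thinned CAL-101 cells and 19.5, 20.8 and 21.9% of control cells, against 1.56% of neutrophils. Batf, an AP-1 factor of activated T cells, had 87.0, 60.2 and 64.5 against 35.5, 32.6 and 31.4 CPM (1.03, adjusted p = 0.00271). Cd101 (0.69), Cd38 (0.65) and Nr4a1 (0.40) rose, while the inhibitory receptor gene Lag3 fell, with 57.6, 64.1 and 55.9 CPM in CAL-101 mice, against 83.6, 74.8 and 74.8 CPM in control mice (-0.45, adjusted p = 0.00738), and so did Irf4 (-0.31). Pdcd1, which encodes PD-1, had 203, 200 and 214 CPM in CAL-101 mice, against 223, 180 and 204 CPM in control mice (adjusted p = 0.840). Havcr2, which encodes TIM-3, had 36.8, 53.1 and 54.7 against 87.4, 39.6 and 86.4 CPM, with overlap (adjusted p = 0.185). Tox, Batf and Lag3 passed without any 1 mouse.

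Interferon-stimulated genes were higher where they changed. Of 17 genes of the type I interferon list 7 rose and 0 fell (41.2% higher, against 5.94% of all genes; median 0.80, with 16 of 17 above 0). Usp18, which dampens interferon receptor signalling, had 60.5, 66.3 and 45.9 CPM in CAL-101 mice, against 26.6, 32.7 and 24.5 CPM in control mice (0.99, SE 0.15, adjusted p = 0.00572). Ifit1, an RNA-binding antiviral protein gene, had 20.2, 25.4 and 14.7 against 9.76, 7.95 and 5.13 CPM (1.34, adjusted p = 0.0117). Rtp4 (0.80), Ifit3 (1.27), Ifit3b (2.19, at 1.30 to 3.42 against 0.337 to 0.655 CPM), Rsad2 (1.30) and Oas1a (1.06) were the others to rise. Among S dominant cells 2 rose and among G2/M dominant cells 11, where 368 of 11588 and 778 of 13299 of all genes rose. A difference between the phases was not tested. Leaving out 1 mouse gave 3 (without control mouse 3) to 8 (without CAL-101 mouse 3). In those 2 runs 316 of 14432 and 348 of 14011 of all genes rose. Cxcl10, an interferon-induced chemokine gene outside the list, was among the 8 largest increases of well-expressed genes, with 217, 142 and 91.2 CPM in CAL-101 mice, against 40.3, 47.9 and 42.3 CPM in control mice (1.73, adjusted p = 0.00580). Its receptor gene Cxcr3, at 39.9, 42.5 and 50.8 against 10.9, 10.7 and 9.0 CPM, was another (2.07, adjusted p = 9.47e-05).

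In the pathway that CAL-101 inhibits, 5 of 23 PI3K, mTOR and FOXO genes fell (21.7%, against 6.68% of all genes) and 2 rose (8.70%, near the 5.94% of all genes; median -0.13). Pik3r1, encoding the regulatory subunit p85 alpha, had 77.7, 106 and 91.9 CPM in CAL-101 mice, against 141, 136 and 146 CPM in control mice (-0.67, SE 0.10, adjusted p = 0.00535). Pik3r5 (-0.35), Mtor (-0.32), Ddit4 (-0.33, with overlap) and Deptor, an mTOR inhibitor gene (-1.41, at 0.433 to 0.768 against 1.16 to 1.67 CPM), also fell. Inpp4b, a phosphatase of PI3K products, had 1563, 2001 and 1549 CPM in CAL-101 mice, against 1000, 1142 and 1030 CPM in control mice (0.63, adjusted p = 0.00770), and Foxo1, the transcription factor that AKT keeps out of the nucleus, 235, 330 and 276 against 192, 190 and 200 CPM (0.47, adjusted p = 0.0261). Of 15 cytokine receptor and STAT5 genes 3 rose and 0 fell (20% higher, against 5.94%): the feedback inhibitor genes Socs1 (0.44) and Socs3, Socs3 being at 33.5, 33.9 and 32.4 against 21.1, 19.6 and 21.0 CPM (0.64, adjusted p = 0.000874), and the survival gene Bcl2, at 260, 348 and 263 against 198, 180 and 200 CPM (0.54, adjusted p = 0.0168). Il2ra did not pass, with 176, 190 and 182 CPM in CAL-101 mice, against 195, 192 and 198 CPM in control mice (adjusted p = 0.125). Pik3r1, Inpp4b and Socs3 kept their calls without any 1 mouse; Pik3r5 lost its call without control mouse 3 and Bcl2 without control mouse 1 or 3.

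Glycolysis genes fell in 4 of 16 (25.0%, against 6.68% of all genes) and rose in 1 (6.25%, near the 5.94% of all genes; median -0.13). Pkm, pyruvate kinase, had 282, 305 and 295 CPM in CAL-101 mice, against 393, 371 and 345 CPM in control mice (-0.38, adjusted p = 0.00884), and the glucose transporter gene Slc2a3 (-0.59), Eno1 (-0.46) and Gapdh (-0.31) fell, whereas Pfkl rose (0.29). Genes known to respond to tissue dissociation and stress rose in 4 of 16 (25.0%, against 5.94% of all genes). They fell in 1 (6.25%, near the 6.68% of all genes), with a median of 0.24. Hsph1, a chaperone gene, had 72.8, 91.8 and 98.2 against 42.4, 42.4 and 39.5 CPM (1.03, adjusted p = 0.00100), and Fos, an immediate early gene, 117, 109 and 114 against 60.6, 80.6 and 74.2 CPM (0.60, adjusted p = 0.0102). Dusp1 (0.39) and Jun (0.30) rose, and Atf3 fell (-0.70). The part of dissociation in the other differences was not tested.

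Outside the lists, Jchain, Igkc, Tcrg-C4 and Fgf13 were among the 8 largest increases of genes of at least 20 CPM without overlap. Tcrg-C4, a gamma chain constant region of the T cell receptor, had 79.8, 66.2 and 71.4 CPM in CAL-101 mice, against 18.5, 13 and 17.2 CPM in control mice (2.10, adjusted p = 9.47e-05), and Fgf13, a fibroblast growth factor homologue, 76.7, 100 and 85.1 against 24.0, 19.0 and 17.4 CPM (2.06, adjusted p = 0.000115). Jchain, which joins antibody chains, had 78.8, 75.2 and 58.8 CPM in CAL-101 mice, against 12.2, 9.30 and 5.68 CPM in control mice (2.90, adjusted p = 0.000298). Igkc, the kappa light chain constant region, had 102, 46.5 and 69.1 against 5.73, 27.4 and 2.10 CPM (2.60, SE 0.71, adjusted p = 0.0466), a call that was lost with DESeq2 and without any 1 of the mice but control mouse 2. The 5 B cell markers summed to 126 to 155 CPM in CAL-101 and 41.9 to 50.5 CPM in control mice, nearly all of it from Ighm (125 to 154 against 40.4 to 48.5 CPM), while Ms4a1 was at 6 UMIs and Cd79a averaged 0.716 and 0.592 CPM in CAL-101 and control mice. Among the largest decreases outside the granzymes were Kcnk10, a potassium channel gene (23.2, 11.9 and 15.7 against 93.2, 101 and 104 CPM, -2.62), Anxa1, an annexin (8.10, 9.73 and 6.06 against 54.3, 35.0 and 48.8 CPM, -2.59), and Plcl1, a phospholipase C-like gene (15.5, 17.7 and 19.8 against 84.8, 81.7 and 109 CPM, -2.43), with adjusted p = 0.000290, 0.000240 and 8.34e-05. All of these but Igkc kept their calls without any 1 mouse.

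On the surface, 9 of 102 antibodies were higher and 9 lower in CAL-101 (17.6% called, edgeR on tags summed per mouse), and none of the 7 isotype controls passed (0 of 7). Each antibody is read by a tag of 15 bases, and the tags of 4 that turn on the result are given as designed, in capitals.
CD357: GGCACTCTGTAACAT
CD73: ACACTTAACGTCTGG
CD5: CAGCTCAGTGTGTTG
CD49d: CGCTTGGACGCTTAA
CD357 (GITR, a costimulatory receptor of the TNF receptor family) took 2.76, 2.83 and 2.67% of tags in CAL-101 mice 1, 2 and 3, against 5.64, 6.51 and 6.06% in control mice 1, 2 and 3. The groups were far apart (log2 fold change -1.21, SE 0.07, adjusted p = 0.000550), and its gene Tnfrsf18 fell as well, with 166, 166 and 141 CPM against 275, 291 and 305 CPM (-0.94, adjusted p = 0.000445). CD73, an ectoenzyme that makes adenosine, took 0.331, 0.367 and 0.251% in CAL-101 mice, against 0.0882, 0.105 and 0.0880% in control mice (1.68, SE 0.16, adjusted p = 0.00352), and its gene Nt5e was at 42.5, 73.5 and 45.5 against 16.4, 15.0 and 20.5 CPM (1.58, adjusted p = 0.00277). Both antibodies passed in every alternative run.

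Other antibodies moved by less, and their genes did so only in part. CD5, an inhibitory partner of the antigen receptor, took 2.19, 2.24 and 2.23% in CAL-101 mice, against 1.34, 0.981 and 1.15% in control mice (0.87, adjusted p = 0.0190), and its gene Cd5 rose by 1.09. CD200, an inhibitory ligand (0.607, 0.418 and 0.399 against 0.224, 0.282 and 0.243%; 0.85), and Ly108 (0.125, 0.0930 and 0.144 against 0.0531, 0.0624 and 0.0449%; 1.10) rose with their genes Cd200 (1.70) and Slamf6. CD49d, the integrin alpha 4 chain, took 4.60, 3.69 and 4.46% against 2.59, 2.48 and 2.81% (0.63, adjusted p = 0.0190), whereas its gene Itga4 did not pass (0.10, adjusted p = 0.414). CD44, the hyaluronan receptor of activated T cells, fell on the surface (4.51, 4.04 and 3.88 against 5.11, 6.39 and 5.30%; -0.51, adjusted p = 0.0300) while its gene Cd44 rose (0.30, adjusted p = 0.0278). CD25 fell (1.12, 0.869 and 0.898 against 1.33, 1.80 and 1.48%; -0.75, adjusted p = 0.0262), and the integrin chains CD49b (-1.07), CD11a (-0.51) and CD11c (-1.21) did so too, CD11c at 0.0528 to 0.0566% in CAL-101 mice, under the isotype level. CD55 (-0.74), CD45R_B220 (-0.69) and TCR.Bchain (-0.37) complete the lower ones. Tim.4 (0.41), CD1d (0.37) and CD79b (0.33) were small increases; the gene Cd79b was at 0.441 CPM in CAL-101 and 1.27 CPM in control mice. In CAL-101 mouse 3, 1 cell of cluster 2 held 1677 of the 5712 Ly108 tags (29.4%), so that its 0.144% rests in part on that cell. Each antibody of this paragraph lost its call without at least 1 mouse, CD5 without control mouse 3, CD200 without control mouse 1 or 3, and CD49d without CAL-101 mouse 1 or 3 or control mouse 1 or 3.

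The receptors named for exhaustion were not told apart on the surface. CD279 (PD-1) took 1.42, 1.11 and 1.23% in CAL-101 mice, against 0.946, 1.19 and 1.06% in control mice (adjusted p = 0.383), and CD366 (TIM-3) 1.01, 1.12 and 1.32 against 1.47, 0.976 and 1.49% (adjusted p = 0.383). CD127, the IL-7 receptor, had a log2 fold change of 0.03 (adjusted p = 0.641). CD90.2 was at 0.0396 to 0.0713% in CAL-101 and 0.0643 to 0.124% in control mice, near the isotype level and far under the 3.00% of NK cells; the labels give the transferred cells as Thy1.1. Single cells can carry a sum: in CAL-101 mouse 3, 1 cell of cluster 2 held 111500 of the 118033 CD185 tags (94.5%), and no difference is read from that antibody.

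**Figure D5:**
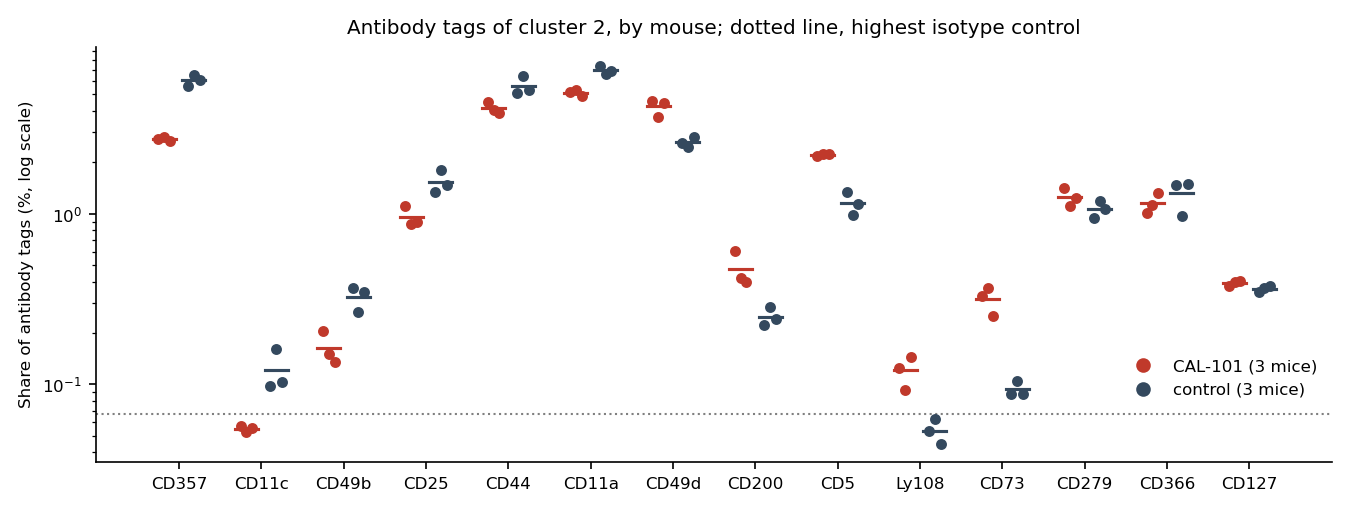
Share of antibody tags (y axis, percent, log scale) of 14 antibodies (x axis) in cluster 2 of 3 CAL-101 mice (red, left) and 3 control mice (dark, right); points are mice, bars are means and the dotted line is the highest isotype control (0.0669%). CD357 is lower and CD73 and CD5 higher in every CAL-101 mouse, while CD279 and CD366 overlap between the groups.

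Whether cluster 2 responded differently from the other T cells was tested on the per-mouse difference in log2 CPM between cluster 2 and the pooled clusters 1, 3, 4 and 5, with limma. Of 13988 genes 4 passed (0.0286%; 1017 at an unadjusted p under 0.05). Hist1h2bc fell more in cluster 2 (log2 effect -1.31) than in the others (-0.50), where it was at 26.1, 22.4 and 25.8 CPM in CAL-101 mice, against 38.5, 27.4 and 38.6 CPM in control mice (difference -0.81, SE 0.10, adjusted p = 0.00638). Adk, adenosine kinase, rose less in cluster 2 (0.65 against 1.09 in the others; difference -0.44, adjusted p = 0.0196): it had 96.0, 82.4 and 85.3 CPM in CAL-101 mice and 53.2, 60.5 and 48.2 CPM in control mice inside cluster 2. Igkc had an effect of 3.25 in cluster 2 and 4.26 in the others (difference -1.01, adjusted p = 0.0445). St8sia1, a sialyltransferase gene, had an effect of 0.07 in cluster 2 and -0.60 in the others (difference 0.67, adjusted p = 0.0350); at 7.86 CPM it is under the level set for naming and was named after its values were seen. Without CAL-101 mouse 3, 0 genes passed.

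For Gzma, Gzmb, Tcf7 and Tox, the difference from the pooled other T cells did not pass. Gzma fell by 4.17 in cluster 2 and by 4.77 in the others on the scale of this test (adjusted p = 0.109), Tcf7 had effects of 2.27 and 2.37 (adjusted p = 0.836), Tox 1.82 and 2.13 (adjusted p = 0.570) and Gzmb -1.25 and -1.22 (adjusted p = 0.945). The pooled others change in makeup between the groups, with the shares of clusters 3 and 5 given above. When clusters 1, 3, 4 and 5 counted equally, 245 genes passed, among them Tcf7 (difference 0.95), Slamf6 (0.63), Cxcr3 (0.61), Tox (0.27, limma adjusted p = 0.0480) and Hist1h2bc (-0.91). Effector genes passed too, Gzmf (-0.78, limma adjusted p = 0.0205) and Serpinb9b (-0.79, limma adjusted p = 0.0434) falling more in cluster 2. Gzma (-0.14) and Gzmb (-0.31) did not pass (limma adjusted p = 0.662 and 0.0569). Against cluster 4 alone, the other cycling cluster, a choice made after seeing the data, 86 of 11432 genes passed (0.752%), 79 of them with the higher effect in cluster 2. Hist1h2bc was again lower (-0.72, adjusted p = 0.0221), with the heat shock gene Dnajb4 (-0.66) and the decoy receptor gene Il1r2 (-0.64), while Ccl3 (0.64), Rab18 (0.56), Isg15 (0.52), Lsm8 (0.52) and Ccl5 (0.51) were on the other side. By antibodies, 0 of 102 differences passed with limma (8 at an unadjusted p under 0.05, smallest adjusted p 0.388).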

How the data were processed

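RNA and 102 surface antibodies were read from single tumour cells of 6 mice, entered as 12 sample records. The deposited matrices hold UMI counts for 32285 genes and the antibodies, which per the file headers come from Cell Ranger 7.1.0. The submitters' processing notes also name mm10 and Seurat. No source used here says how the authors clustered and labelled the cells. The members and gene lists were chosen with earlier results of these data known.

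Counts of cluster 2 T cells were summed per mouse. The test was the quasi-likelihood one of edgeR 4.0.16 in R 4.3.3, with TMM scaling, filterByExpr and group as the only term, and Benjamini-Hochberg adjustment at 0.05. Mice are the replicates. Differences of effects used limma 3.58.1 on per-mouse log2 CPM (prior count 2). Single values had exact 2-sided permutation tests over 20 assignments of mice, whose smallest p is 0.1. Alternatives included DESeq2 1.42.0. Genes named by size were the 8 largest changes each way among called genes of at least 20 CPM without overlap, besides up to 4 per list and 12 set genes. Doublets were scored with Scrublet (scanpy 1.11.5), which marked 0 to 1.43% of a library, so an alternative leaves out the highest scores. On simulated counts of 14012 genes the RNA test recovered 96, 79 and 60% of genes changed by 2, 1 and 0.585 on the log2 scale, with 10 false calls. The test of a difference of effects recovered 94, 69 and 16% in the same order, with 13 false calls. There the sums of cluster 2 and of the other clusters were drawn independently, without variation shared within a mouse. The recovery in the real data may therefore differ. Replicates within a group differed beyond sampling noise (chi-square per degree of freedom 4.58 to 25.0). Intervals cover counting error only. Without stated strand use in counting, overlapping and near-identical genes are uncertain. Some genes and a protein are not reported here.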

Additional observations from a re-analysis of the deposited data

Results flagged for a closer look

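For each of 4 genes, the effect of CAL-101 in cluster 2 differed from that in the pooled other T cells. The limma test was of the difference itself. Hist1h2bc, an H2B histone gene, fell further in cluster 2 (difference of log2 effects -0.81, adjusted p = 0.00638). Adk, adenosine kinase, rose less there (-0.44, adjusted p = 0.0196). Igkc, a light chain constant region, had the smaller effect in cluster 2 (-1.01, adjusted p = 0.0445). St8sia1, a sialyltransferase gene, had 12.8, 16.7 and 13.5 CPM in CAL-101 mice and 18.5, 32.4 and 16.1 CPM in control mice outside cluster 2, and inside it 7.34, 9.41 and 7.41 against 6.94, 10.7 and 5.38 CPM (difference of log2 effects 0.67, adjusted p = 0.0350). None of the 4 (0 genes in all) passed without CAL-101 mouse 3, where the adjusted p of Hist1h2bc was 0.0904. The pooled other T cells also differed in makeup between the groups, as given above. Against cluster 4 alone, 1 of the 4 genes, Hist1h2bc, kept its result and 3 were weaker. With clusters 1, 3, 4 and 5 counting equally, 2 kept theirs and 2 were weaker.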

How the results depend on the processing

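Replicate numbers did not pair the mice (correlations of same-numbered mice -0.20, -0.27 and 0.03), and with a replicate block 543 genes were called in place of 1769 (538 of them shared), 6 antibodies in place of 18, 6 differences of RNA effects in place of 4 and 0 differences of antibody effects. Other settings gave 810 genes in S dominant cells and 1521 to 2119 otherwise, and leaving out 1 mouse gave 625 (without control mouse 3) to 2654 (without control mouse 2). Antibody calls numbered 29 with DESeq2, 10 when scaled to the isotype controls and 4 to 19 without 1 mouse. RNA differences numbered 46 against cluster 1 alone, 86 against cluster 4 alone (chosen after seeing the data), 245 with clusters counted equally, 2 without the highest doublet scores, 15 without cells over 20% mitochondrial UMIs and 0 to 67 without 1 mouse. Antibody differences numbered 1 against cluster 1 alone and 1 without the highest doublet scores. The difference in the share of S phase dominant cells inside cluster 2 was 0.441 points without the highest doublet scores and -2.31 to 1.89 without 1 mouse; that in median RNA UMIs per cell in cluster 2 was -1228.5 to 3814 and that in median mitochondrial percent in cluster 2 was -0.0454 to 0.118 points without 1 mouse. The difference in the cluster's share was 3.07 to 5.97 points without 1 mouse. In S dominant cells Cdk1 (RNA) was at -0.023 and Il2ra (RNA) at 0.012 on the log2 scale, and CD127 (antibody) was at -0.056 when scaled to the isotype controls. The cause was not tested.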

Other observations

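In the T cells outside cluster 2 of CAL-101 mouse 2, 1 cell held 29928 of the 37792 Ly108 tags (79.2%), so the ratio of cluster 2 to the others for that antibody (log2 -0.89) rests on that cell.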
